A study of Mus musculus with 2 samples.

Results

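The genes described here are 10 members of the HSP70 and HSP110 chaperone families, those of the cytosol, nucleus and mitochondria: Hspa1a, Hspa1b, Hspa2, Hspa8, Hspa9, Hspa12a, Hspa14 and the HSP110 genes Hspa4, Hspa4l and Hsph1. They were taken by symbol from a deposited expression table of 15953 genes, and all 10 were present in it. The table holds 1 RNA-seq library from mouse neural stem cells of wild-type genotype and 1 from neural stem cells of a Hikeshi conditional knockout (cKO), both kept in suspension culture. The strain, the age of the animals, the Cre driver, the deleted exons and the number of animals or cultures behind each library are not stated in the sources at hand. With 1 library per genotype no test between genotypes was possible, so every interval below is a 95% counting interval that compares these libraries only. Fewer cells of a type and less RNA per cell cannot be told apart in such bulk RNA.

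HSP70 proteins bind exposed hydrophobic stretches of client proteins and release them in a cycle driven by ATP. J-domain proteins deliver clients and trigger ATP hydrolysis, and exchange factors, HSP110 proteins among them, release ADP so that the cycle can restart. Some members, above all Hspa8, are made in every cell at all times, while Hspa1a and Hspa1b are switched on by heat shock factors, chiefly HSF1, when unfolded proteins accumulate. Hikeshi is the import carrier that brings HSP70 into the nucleus, most of all after heat stress.

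The promoters of the 2 inducible genes and of 2 HSP110 genes are shown first, because the first 3 belong to the members with the largest ratios between the libraries, and the last, Hspa4, is an HSP110 gene with a small ratio. Each run is the 250 bases before an annotated start, 5′ to 3′ on the gene's own strand, from RefSeq on GRCm38.p6. For Hsph1 that start lies inside the gene span given further below. Much of its run, the capitals included, is therefore within the gene and not upstream of it. Capitals mark paired units of the heat shock element, the sequence that heat shock factors bind, written GAANNTTC or TTCNNGAA. Each of these forms is its own reverse complement, so both strands were covered. Hspa1a lies at chr17:34972157-34972406, Hspa1b at chr17:34959239-34959488, Hsph1 at chr5:149636337-149636586 and Hspa4 at chr11:53300480-53300729, all on the minus strand.
Hspa1a: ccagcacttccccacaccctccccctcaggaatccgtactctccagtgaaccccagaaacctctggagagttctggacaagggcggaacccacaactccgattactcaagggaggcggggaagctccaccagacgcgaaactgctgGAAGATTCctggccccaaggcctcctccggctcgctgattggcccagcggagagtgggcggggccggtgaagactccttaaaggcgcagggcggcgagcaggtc
Hspa1b: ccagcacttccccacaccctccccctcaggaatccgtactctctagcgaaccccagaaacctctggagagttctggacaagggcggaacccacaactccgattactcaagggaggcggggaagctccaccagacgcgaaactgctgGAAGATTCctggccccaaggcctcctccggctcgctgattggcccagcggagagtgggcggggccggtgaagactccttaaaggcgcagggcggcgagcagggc
Hsph1: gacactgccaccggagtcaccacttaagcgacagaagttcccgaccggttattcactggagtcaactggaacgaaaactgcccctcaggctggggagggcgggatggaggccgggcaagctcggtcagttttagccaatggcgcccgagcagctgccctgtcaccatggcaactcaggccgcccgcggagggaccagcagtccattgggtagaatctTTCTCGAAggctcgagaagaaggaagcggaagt
Hspa4: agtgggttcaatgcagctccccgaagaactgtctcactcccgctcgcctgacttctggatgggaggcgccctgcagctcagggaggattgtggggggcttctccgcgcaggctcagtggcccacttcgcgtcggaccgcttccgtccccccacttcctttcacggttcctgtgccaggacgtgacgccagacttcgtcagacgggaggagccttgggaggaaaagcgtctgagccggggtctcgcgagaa
Promoters were matched for 8 of the 10 members (not Hspa8 and Hspa9), and 3 of these 8 genes held such a pair, namely Hspa1a, Hspa1b and Hsph1. Over all 27018 genes with a promoter in the RefSeq table, 14.6% held it in the same 250 bases. Hspa4l, with a ratio of 1.54 between the libraries, held 0 such pairs in its window and is not printed. The windows of Hspa4l (chr3:40745363-40745612) and Hspa2 (chr12:76404120-76404369) lie wholly inside the gene spans given further below. The bases before the outer ends of those spans were not searched, so the counts for members mix upstream and within-gene windows. The printed promoters were chosen by ratio, so they are no support for a link between such pairs and the ratios. Those of Hspa1a and Hspa1b are close to identical and are not independent matches. In Hspa1a and Hspa1b the pair GAAGATTC lay at bases -104 to -97 from the start, and in Hsph1 the pair TTCTCGAA lay at -33 to -26. Counted from another listed start of Hsph1, whose run is not printed, the same pair lay at -54 to -47. A run of 3 alternating units (GAANNTTCNNGAA or its reverse complement TTCNNGAANNTTC, which overlap the paired form) was matched in 0 of the 8, against 0.514% of all genes. The CCAAT box (CCAAT or ATTGG), which does not overlap those units, was matched in 5 of the 8 members, Hspa1a, Hspa1b, Hspa2, Hspa14 and Hsph1, against 37.5% of all genes. These are letter matches in 1 window per listed start, and nothing was measured of factor binding.

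The libraries differed little at the carrier gene itself. Hikeshi reads numbered 640 under the cKO label and 718 under the wild-type label, a ratio of 0.888 (0.797 to 0.989). Counts over the whole gene cannot check a deletion of some exons, so the genotype rests on the label. Depth was nearly equal, at 18912683 and 18839079 reads. Neural stem cell markers were present in both libraries, with 10 of 10 detected and summed levels of 8245 CPM (reads per 1000000 reads counted) under the cKO label and 7461 under the wild-type label. They went both ways: 8 of the 10 were lower under the cKO label, Fabp7 (1287 against 1947 CPM) and Slc1a3 (1080 against 1661 CPM) among them, while Vim (4578 against 2716 CPM) and Nes (780 against 569 CPM) were higher. Markers of other cell types also moved with the label: 6 of 6 oligodendrocyte lineage markers were detected in both, summing to 34.1 against 867 CPM, and 4 of 4 astrocyte markers summed to 657 against 1656 CPM. The 5 neuronal markers summed to 53.5 against 113 CPM, with Dcx (4.23 against 43.7 CPM) and Snap25 (23.7 against 41.1 CPM) making up most of the gap and Syt1 and Rbfox3 slightly higher under the cKO label. Of the microglial markers 4 of 5 were listed and summed to 0.264 against 0.372 CPM, with Cx3cr1 and Csf1r at 0 under the cKO label and Tmem119 at 0 under the wild-type label. The Y-linked genes Eif2s3y (1265 reads against 0), Ddx3y (846 against 0), Kdm5d (515 against 0) and Uty (305 against 1) were higher under the cKO label. A difference in sex between the libraries thus cannot be told apart from genotype in any ratio given here. The part of these differences in the results on HSP70 genes was not tested.

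Across the 10 members the libraries differed most at the inducible genes. On the log2(CPM + 1) scale 4 members were at least 1.5-fold higher in the library labelled cKO (Hspa1b, Hspa1a, Hsph1 and Hspa4l), where 4.22% of the 12618 genes with at least 1 CPM in either library were so. On the same scale 2 were at least 1.5-fold lower (Hspa12a and Hspa2), where 10.2% of all such genes were. Neither of these passed that limit with 5 CPM added in place of 1, and the higher members numbered 3 by deposited TPM, where Hspa4l had a ratio of 1.47. Of all genes, 5.34% were lower with 5 CPM added and 3.88% higher by deposited TPM. All 10 members passed the 1 CPM filter. Of the members 8 lay above 0, as did 47.8% of all genes. The median difference of the members was 0.41 (range -0.83 to 4.59), against -0.02 for all genes. Counting intervals of the ratio lay above 1 for 7 members and below 1 for 2, and that of Hspa14 held 1. Hspa1a and Hspa1b are each counted in these tallies, though they cannot be read as separate measurements.

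**Figure D1:**
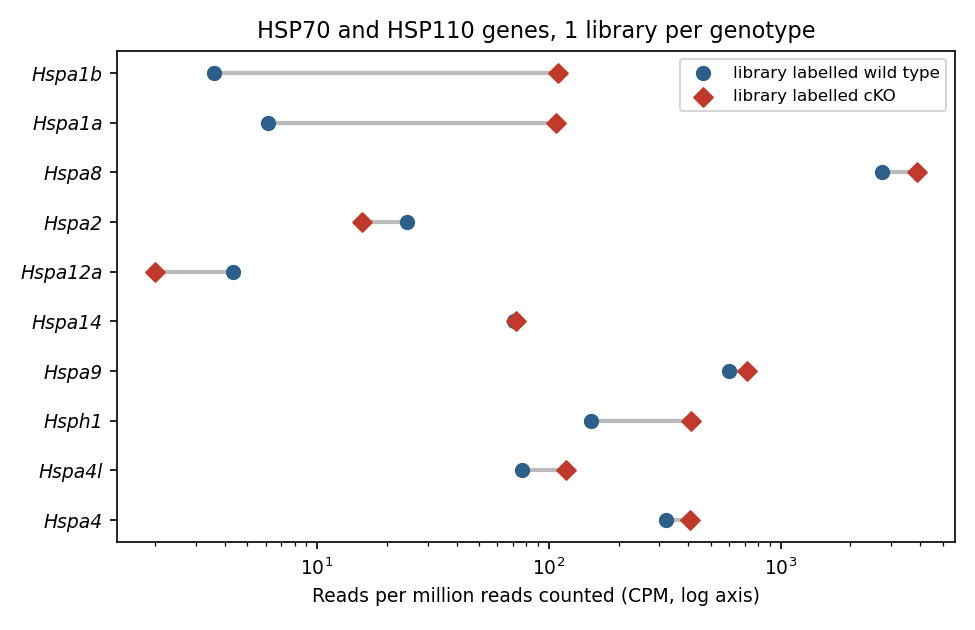
Level of each member in reads per 1000000 reads counted (horizontal log axis), with 1 circle for the library labelled wild type and 1 diamond for the library labelled cKO, joined by a grey line. The longest lines belong to Hspa1b (3.61 to 110 CPM) and Hspa1a (6.16 to 107 CPM), while the points of Hspa14 nearly coincide (71.1 and 72.2 CPM).

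Hspa1a (Entrez 193740, chromosome 17, 34969359 to 34972156) and Hspa1b (Entrez 15511, chromosome 17, 34956429 to 34959238) encode the heat-inducible cytosolic HSP70 and sit 10120 bases apart. Hspa1b had 3.61 CPM (68 reads) under the wild-type label and 110 CPM (2075 reads) under the cKO label, a ratio of 30.4 (23.9 to 39.3). Hspa1a had 6.16 CPM (116 reads) and 107 CPM (2027 reads) in the same order, a ratio of 17.4 (14.4 to 21.2). Scaled for length, Hspa1b and Hspa1a had 2.34 and 4.01 TPM under the wild-type label, where only Hspa12a was lower among the members, and 71.3 and 70.01 TPM under the cKO label, between Hspa4l and Hspa14.

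The pair cannot be read as separate measurements. Their coding sequences, from GENCODE transcripts, were 99.4% identical, with 8 mismatched bases and 3 gap positions, and 47.1% of all 100-base windows of the Hspa1a transcript occurred without change in that of Hspa1b. Deposited read counts of the pair were fractional, for example 2027.28 and 2074.57 under the cKO label, while those of the other 8 members were whole numbers. Summed before scaling, the pair had 184 reads (9.77 CPM) against 4102 reads (217 CPM), a ratio of 22.2 (19.2 to 25.9). The share of the pair's reads given to Hspa1b was 37.0% (exact binomial interval 30.0 to 44.4) under the wild-type label and 50.6% (49.04 to 52.1) under the cKO label. These intervals leave out the error of dividing shared reads between the genes, so the shares are not read as different. The promoters printed above are also close to identical, with 247 of 250 bases the same. The 3 differences, written with the Hspa1a base first and counted upstream from 1 at the base before the start, are C207T, T204C and T2G, and all lie outside the capitals. The testis-type gene Hspa1l starts 546 bases beyond the start of Hspa1a, and its coding sequence was 82.8% identical to that of Hspa1a. It had 68 against 59 reads, a ratio of 1.15 (0.798 to 1.66), so the neighbour did not differ detectably at this depth.

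Hspa8 (Entrez 15481, chromosome 9, 40801276 to 40805202), the constitutive HSC70 that also strips clathrin from vesicles, was the most abundant member per length in both libraries (2482 and 3498 TPM). It had 2746 CPM (51739 reads) under the wild-type label and 3864 CPM (73074 reads) under the cKO label, 1.41-fold higher (1.39 to 1.42). This stayed short of the 1.5-fold limit, yet 93.8% of all genes had a smaller signed difference. Its coding sequence was 73.9% identical to that of Hspa1a, and no 100-base window of the Hspa1a transcript occurred in it.

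Hspa9 (Entrez 15526, chromosome 18, 34937414 to 34954351), or mortalin, pulls proteins through the inner mitochondrial membrane and serves iron-sulphur cluster assembly. It had 599 CPM (11282 reads) under the wild-type label and 714 CPM (13509 reads) under the cKO label, a ratio of 1.19 (1.16 to 1.22). Hspa14 (Entrez 50497, chromosome 2, 3488854 to 3512814), the HSP70 of the ribosome-associated complex that meets nascent chains, had 71.1 CPM (1340 reads) and 72.2 CPM (1365 reads). Its ratio was 1.01 (0.940 to 1.09), so no difference was detectable beyond counting error.

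The members that were lower in the library labelled cKO were also the 2 constitutive genes of lowest level per length, at 17.6 and 11.3 TPM (Hspa2) and 1.29 and 0.58 TPM (Hspa12a). Hspa2 (Entrez 15512, chromosome 12, 76403812 to 76406938), best known as the HSP70 of spermatogenesis, had 24.5 CPM (461 reads) under the wild-type label and 15.7 CPM (297 reads) under the cKO label, 1.56-fold lower (1.34 to 1.81). Hspa12a (Entrez 73442, chromosome 19, 58795750 to 58943672), a distant relative of the family, had 4.35 CPM (82 reads) and 2.01 CPM (38 reads), 2.17-fold lower (1.46 to 3.27). Its locus overlaps Eno4, which had 10 reads under the wild-type label and 2 under the cKO label. Hspa2 was thus opposite in direction to Hspa1a although their coding sequences were 78.2% identical.

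HSP110 proteins are relatives of HSP70 that act as its exchange factors and keep aggregated proteins soluble. Hsph1 (Entrez 15505, chromosome 5, 149616843 to 149636498), the heat-inducible HSP105, had 152 CPM (2868 reads) under the wild-type label and 412 CPM (7786 reads) under the cKO label. The ratio of Hsph1 was 2.70 (2.59 to 2.82), and 50 of the 12618 genes had a larger difference. Hspa4l (Entrez 18415, chromosome 3, 40744500 to 40796103), known also as the osmotic stress protein OSP94, had 76.9 CPM (1448 reads) and 118 CPM (2240 reads), a ratio of 1.54 (1.44 to 1.65), an interval that holds the 1.5-fold limit. Hspa4 (Entrez 15525, chromosome 11, 53259814 to 53300479), the APG-2 protein, had 321 CPM (6048 reads) and 406 CPM (7671 reads), a ratio of 1.26 (1.22 to 1.31). Within this subfamily the intervals did not overlap, so the order Hsph1, Hspa4l, Hspa4 exceeded counting error.

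**Figure D2:**
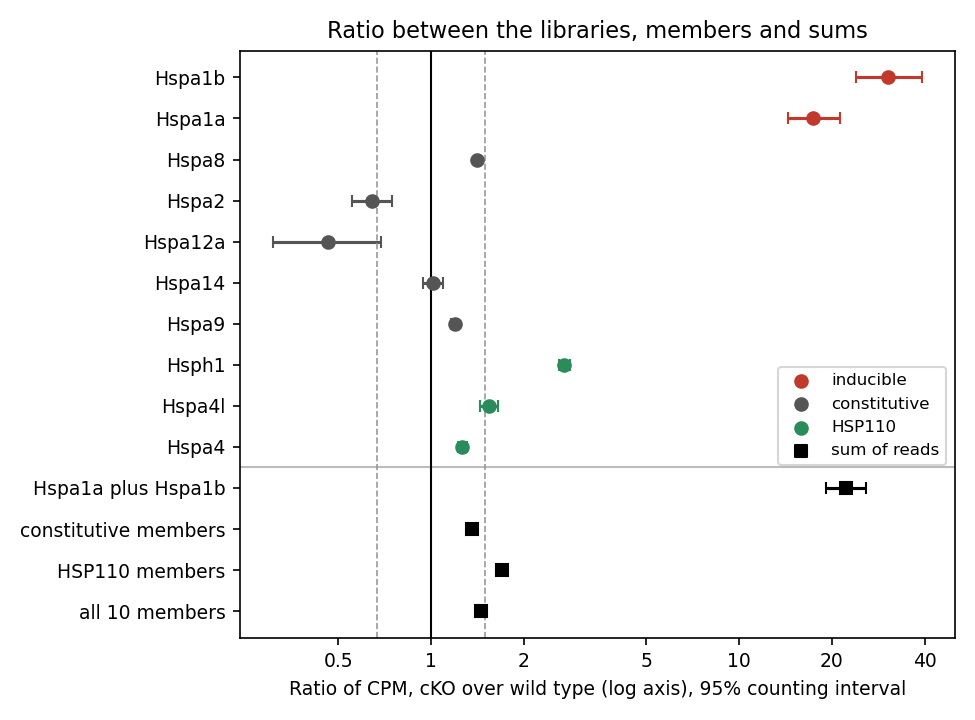
Ratio of CPM, cKO over wild type (horizontal log axis), for each member (circles, coloured by class) and for sums of reads (squares), with 95% counting intervals; the solid line is a ratio of 1 and the dashed lines are 1.5-fold in either direction. The inducible pair stands at 17.4 and 30.4, Hsph1 at 2.70, and the sum of the constitutive members at 1.35.

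Ordered by ratio, the members ran Hspa1b, Hspa1a, Hsph1, Hspa4l, Hspa8, Hspa4, Hspa9, Hspa14, Hspa2 and Hspa12a. Neighbours with overlapping intervals were Hspa4 with Hspa9, and Hspa2 with Hspa12a. Since Hspa1a and Hspa1b are not separate measurements, their order is not read as a difference. The 5 constitutive members summed had 64904 reads under the wild-type label and 88283 under the cKO label, a ratio of 1.35 (1.34 to 1.37). The ratio of the inducible pair was therefore 16.4 times that of the constitutive members (14.1 to 19.1). Counting Hsph1 among the inducible members lowered this figure to 2.86. Hspa8 dominates that sum, and without it the other 4 constitutive members had a ratio of 1.15 (1.12 to 1.18). The 3 HSP110 members summed had a ratio of 1.70 (1.66 to 1.74), of which Hspa4 and Hspa4l alone gave 1.32 (1.28 to 1.36).

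Levels were compared between members on the TPM scale, which divides by transcript length. The 10 members summed to 3166 TPM under the wild-type label and 4560 TPM under the cKO label. Hspa8 held 78.4% of that sum under the wild-type label and 76.7% under the cKO label, and Hspa9 held 11.2% and 9.31%. The share of Hspa1a plus Hspa1b was 0.201% (6.35 TPM) under the wild-type label and 3.10% (141 TPM) under the cKO label. Hsph1 held 2.46% and 4.63%, Hspa4 3.79% and 3.34%, Hspa14 2.46% and 1.74%, and Hspa4l 0.892% and 0.910%. Hspa2 held 0.555% and 0.248%, and Hspa12a 0.0407% and 0.0127%. The share of Hspa8 thus changed little, while the pair stood below Hspa2 in 1 library and above it in the other.

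Of the HSP70 genes alone, without the HSP110 genes, Hspa8 held 84.4% of TPM under the wild-type label and 84.2% under the cKO label. The pair held 0.216% and 3.40%, Hspa9 12.1% and 10.2%, Hspa14 2.65% and 1.90%, Hspa2 0.598% and 0.272%, and Hspa12a 0.0439% and 0.0140%. Set against Hspa8, the TPM of the inducible pair amounted to 0.256% under the wild-type label and 4.04% under the cKO label. In absolute TPM the order of the differences was another one than the order of the ratios. Hspa8 was higher by 1016 TPM in the library labelled cKO, which was 72.9% of the net difference of 1394 TPM over the 10 members. The pair added 135 TPM, or 9.68%, Hsph1 133 TPM, or 9.56%, and Hspa9 69.8 TPM, or 5.01%. The gene with the modest ratio thus carried most of the additional family transcript, and the pair with the large ratio carried about as much as Hsph1.

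**Figure D3:**
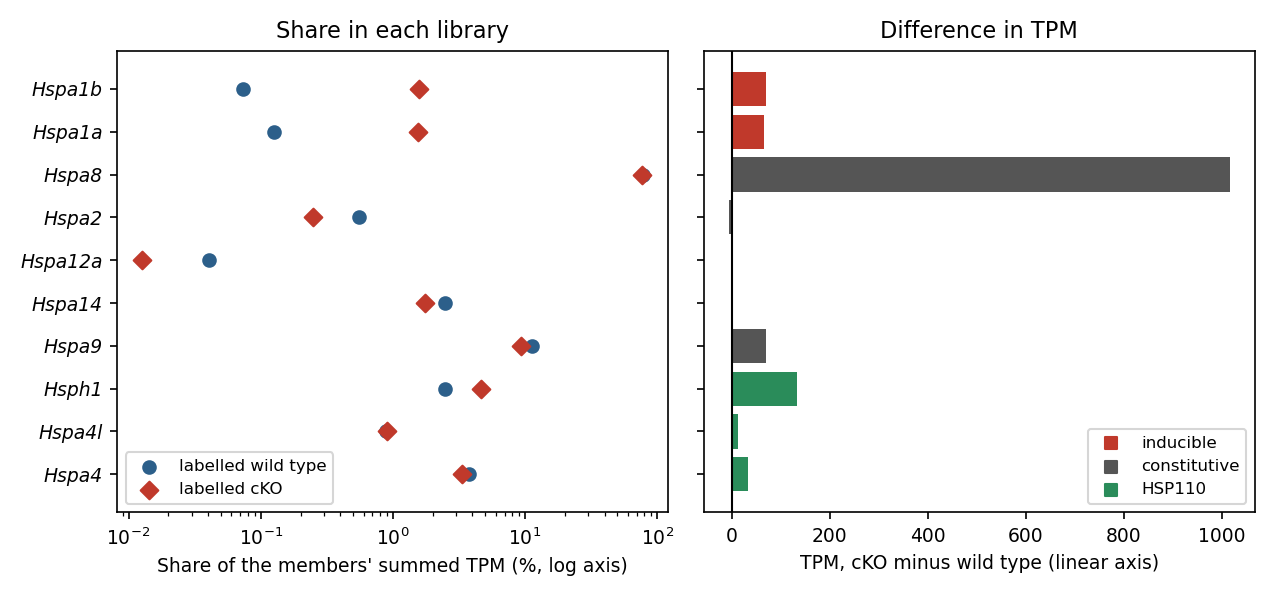
Left, share of the members' summed TPM held by each gene (log axis) in the library labelled wild type (circles) and labelled cKO (diamonds); right, the TPM of each gene in the library labelled cKO minus that in the library labelled wild type (bars, linear axis, coloured by class). Hspa8 has nearly the same share in both libraries and the longest bar (1016 TPM), while Hspa1a and Hspa1b lie furthest apart on the log axis of shares and have bars of 66.0 and 69.0 TPM.

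Genes that work with HSP70 or share its heat shock control were read in lists chosen with earlier results of these data known. Counts in these lists are descriptive and are no independent support. All of the listed genes had smaller ratios than the inducible pair. Of 19 heat shock factor targets outside the family, 9 were at least 1.5-fold higher in the library labelled cKO and none (0) were 1.5-fold lower, beside 4.22% and 10.2% of all genes. Their median log2 difference was 0.57 (range -0.02 to 1.42). Among the 9, some had intervals that hold the 1.5-fold limit. These were Dnaja1 (1.46 to 1.55), Hsp90ab1 (1.49 to 1.53), Stip1 (1.48 to 1.58) and Chordc1 (1.45 to 1.76). The small heat shock gene Hspb1 was 3.94-fold higher (2.52 to 6.39, from 99 against 25 reads), and Hsp90aa1, the inducible HSP90, 2.65-fold (2.59 to 2.71). The chaperonin cofactor gene Hspe1 was 1.67-fold higher (1.60 to 1.75) and Cacybp 1.62-fold (1.55 to 1.69). Dnajb1, the J-domain partner usually induced with Hspa1a, had 68.2 CPM under the wild-type label and 102 CPM under the cKO label, a ratio of 1.49 (1.39 to 1.60). Bag3, an exchange factor also induced by heat, had 30.4 and 41.6 CPM, a ratio of 1.37 (1.23 to 1.53).

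In each of the other partner lists at most 2 genes passed in either direction, against 4.22% higher and 10.2% lower of all genes, and nothing is read from such counts for a list. Of 16 cytosolic J-domain partners 1 was at least 1.5-fold higher and 1 lower (median 0.15). The higher one was Dnaja1 (ratio 1.51, 1.46 to 1.55), which is also counted among the heat shock factor targets. The lower one was Dnajc6, which encodes the neuronal auxilin that recruits HSC70 to clathrin coats, with 23 reads against 86, 3.75-fold lower (2.35 to 6.23). Of 13 exchange factors and adaptors 1 was higher and 0 lower (median 0.19), the 1 being Stip1, which joins HSP70 to HSP90 (1.53, 1.48 to 1.58). The mitochondrial list of 14 genes is broad, and not all of them act with Hspa9 itself. In it 2 were higher and 0 lower (median 0.01), namely Hspe1 and the chaperonin gene Hspd1 (1.58, 1.54 to 1.62). Both also stand in the list of heat shock factor targets. Chosen after their values were seen, the exchange factor gene of Hspa9, Grpel1, had a ratio of 1.06 (0.986 to 1.15), and Dnajc2, partner of Hspa14 at the ribosome, 1.32 (1.22 to 1.44).

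The HSP70 relatives of other compartments lay within 1.5-fold. Hspa5, the endoplasmic reticulum member, had 514 CPM under the wild-type label and 634 CPM under the cKO label, a ratio of 1.23 (1.20 to 1.27). Hspa13 had a ratio of 1.14 (1.06 to 1.23) and Hyou1, the HSP110-like gene of the endoplasmic reticulum, 1.0004 (0.953 to 1.05). The regulator gene Hsf1 had 38.4 and 44.0 CPM, a ratio of 1.14 (1.03 to 1.27), and Hsf2 a ratio of 1.01 (0.917 to 1.11). Counted once each, 63 partner genes were kept, 9 of them at least 1.5-fold higher and 1 lower, beside 4.22% and 10.2% of all genes. All 9 stand in the list of heat shock factor targets. Their median was 0.17.

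**Figure D4:**
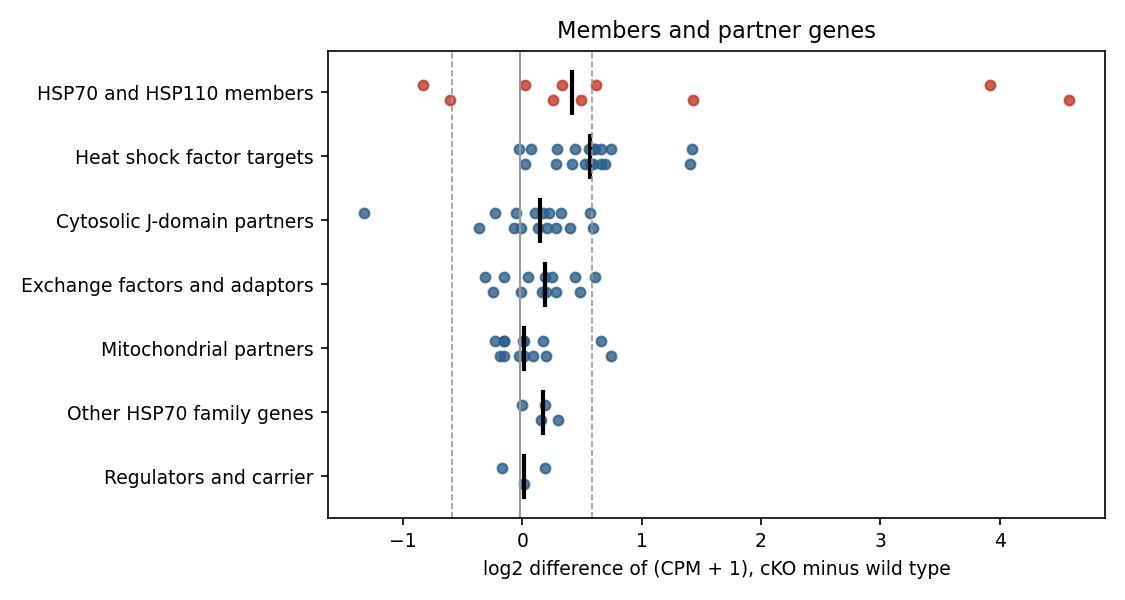
Difference in log2(CPM + 1), cKO minus wild type, of each kept gene (points) for the members and 6 partner lists, with the median of each list as a black bar, the median of all genes as a grey line and 1.5-fold as dashed lines. The heat shock factor targets centre on 0.57, the mitochondrial partners on 0.01, and Hspa1a and Hspa1b lie alone at the right, at 3.92 and 4.59.

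Among 11688 other genes with at least 50 reads in the higher library and reads in both, 1 had a ratio as high as the inducible pair, the Y-linked gene Uty with 305 reads against 1. Genes with 0 reads in a library were not searched, among them the Y-linked Eif2s3y (1265 against 0), Ddx3y (846 against 0) and Kdm5d (515 against 0). The next genes below the pair were Ccn2, a secreted matrix protein gene, at 83 against 8 reads (ratio 10.3, 5.01 to 24.7), Dmp1 at 71 against 9 (7.86, 3.91 to 17.9) and Syt4, a synaptotagmin, at 906 against 116 (7.78, 6.41 to 9.52). They are the 3 nearest in log2 ratio (2.96 to 3.37, against 4.47 for the pair), over 2 libraries only, so the likeness is that of a single difference.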

How the data were processed

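Total RNA of mouse neural stem cells was sequenced as 1 wild-type and 1 Hikeshi cKO sample, with groups from the genotype labels and columns matched by the genotype in their names. Per the submitters' processing notes the build was GRCm38.p6. The sources used here do not name an aligner, counting tool, annotation or strand setting. As estimated counts the authors deposited reads per gene with up to 2 decimals, beside TPM, FPKM and a normalized read count (a signal with 1 constant per library), all named so per the file headers.

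Estimated counts were rounded to whole reads and divided by the column totals, 18912683 (cKO) and 18839079 (wild type), to give CPM. Ratios are of CPM without an added value. Each carries an exact conditional binomial (Clopper-Pearson) 95% interval, and ratios of ratios a conditional interval of the odds ratio (SciPy 1.17.1). Such intervals cover counting error only, and without molecular identifiers reads can be copies of 1 molecule. Counts of genes used log2(CPM + 1) and a filter of 1 CPM in at least 1 library. The intervals were tried on simulated reads drawn with counting error only. That trial cannot speak to variation between animals, cultures or libraries, or to reads shared between genes. TMM factors came from edgeR 4.0.16, coordinates and promoters from RefSeq, transcripts from GENCODE, and alignments from Biopython 1.88.

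Inducible members were Hspa1a and Hspa1b, constitutive members Hspa8, Hspa2, Hspa9, Hspa14 and Hspa12a. Members and lists were chosen with earlier results of these data known. Named genes were all members, up to 4 per list furthest from 0 among those at least 1.5-fold apart with 50 or more reads, 6 anchors (Dnajb1, Bag3, Hsp90aa1, Hspa5, Hsf1, Hikeshi) and the 3 genes nearest the pair in log2 ratio. Outside that rule, the cell type markers and Y-linked genes given were chosen after their values were seen. So were Hspa1l, Hspa13, Hyou1, Hsf2, Grpel1, Dnajc2, Hsp90ab1 and Chordc1. Other scalings, units, added values, filters and thresholds were tried as alternatives.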

Additional observations from a re-analysis of the deposited data

How the results depend on the processing

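No paired analysis was possible because each genotype had 1 library. For the same reason no library could be left out. Of 50 member ratios recomputed with size factors, TMM factors, deposited TPM, FPKM or normalized read counts, 49 stayed inside their counting interval and 0 changed direction. The exception was Hspa8 with TMM factors, at 1.43. The ratio of the inducible pair stayed inside its interval under each of these. That of the constitutive sum was 1.38 with TMM factors and 1.15 without Hspa8. Adding Hsph1 to the inducible members lowered their ratio relative to the constitutive ones from 16.4 to 2.86, since Hsph1 supplied most of the reads of that sum. Members at least 1.5-fold higher numbered 4, and 3 with deposited TPM or at a 2-fold threshold. The number at least 1.5-fold lower was 2, but 0 with 5 CPM added or at a 2-fold threshold, and 1 with a 5 CPM filter or deposited TPM. Higher J-domain partners numbered 0 with 5 CPM added or at 2-fold, and lower ones 0 with the 5 CPM filter. At 2-fold, 0 exchange factors, 0 mitochondrial partners and 2 heat shock factor targets were higher. The shares of all genes moved with these settings too, from 4.22% higher and 10.2% lower in the main setting. They were 1.25% and 3.85% at 2-fold, and 2.41% and 5.34% with 5 CPM added. With the 5 CPM filter they were 3.83% and 7.99%, and by deposited TPM 3.88% and 8.94%. The pair's share of TPM under the cKO label was 3.40% without the HSP110 genes and 2.76% with Hspa5, Hspa13 and Hyou1 in the sum. Hspa12a, at 38 and 82 reads, is the member that depth limits most.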

Other observations

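Reads per unit of deposited FPKM, which follow the transcript length that the authors' estimate used, were nearly the same in both libraries for 8 members, with ratios of cKO to wild type between 1.006 and 1.01. Hspa4l had 87.8 reads per FPKM under the cKO label and 82.9 under the wild-type label, a ratio of 1.06, and its ratio between the libraries was 1.47 by TPM against 1.54 by CPM. Hspa12a had a ratio of 1.03, from FPKM values of 0.36 and 0.80 that are rounded to 2 decimals.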
